A study of Mus musculus with 9 samples.

Results

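Dendritic cells are specified and kept apart by a small set of transcription factors, and 10 of these genes are described here: Irf8, Batf3, Id2, Zbtb46, Irf4, Spi1, Nfil3, Bcl6, Tcf4 and Runx3. The genes were taken by symbol from a table of 45535 named gene rows, and each matched 1 row. RNA was sequenced from dendritic cells of the lung selected for the integrin CD103 (gene Itgae), in C57/BL6j mice given bleomycin, a drug that injures the lung and leads to fibrosis, for 7 days. The cells were pulled out of collagenase-digested lung on magnetic beads, and RNA was taken either directly (before culture, 5 samples) or after 18 h in RPMI medium with serum and antibiotics (after culture, 4 samples). All samples of both groups therefore share genotype, bleomycin, digestion and bead selection, and no untreated lung is compared here. The cell type label names CD103-positive dendritic cells, whereas the extraction note speaks of RNA of the whole lung, and markers of other lung cells were measured in all samples. Ages and sexes are not given in the sources used here, and neither is whether a sample is 1 mouse or a pool, so p-values measure the spread between these samples only.

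The factors divide the dendritic cell lineage between them. IRF8 and BATF3 act together on composite DNA sites to set up and hold the type 1 conventional dendritic cell (cDC1), the CD103-positive dendritic cell of the lung, while IRF4 serves type 2 conventional dendritic cells (cDC2) and migration to lymph nodes. ID2 binds E proteins such as TCF4 and stops them from binding DNA, and TCF4 (also called E2-2) is the factor on which plasmacytoid dendritic cells depend. NFIL3 acts early in cDC1 development, BCL6 is a repressor that cDC1 need, PU.1 (gene Spi1) is required by all myeloid cells, ZBTB46 marks conventional dendritic cells, and RUNX3 is known from Langerhans cells and from CD103-positive T cells.

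The promoters of Irf8, Bcl6 and Runx3 are shown because they hold letters of kinds that members of the set can bind. These are letters of the kind bound by BCL6 and STAT factors before Irf8 and Bcl6, and of the kind bound by RUNX factors before Runx3. Promoter windows of RefSeq (GRCm38.p6) were used for 8 of the 10 genes, 11 windows in all. Tcf4 was left out of the search, and Spi1 had no window. The 250 bases before each annotated start were searched. The first Bcl6 window, at chr16:23988853-23989102, lies before the outer start, and the second, at chr16:23981284-23981533, before the inner start; both are on the minus strand. The Irf8 window is chr8:120736108-120736357 and the Runx3 window chr4:135120395-135120644, both on the plus strand. Each is written 5′ to 3′, and capitals mark TTCNNNGAA, the BCL6 and STAT core, or TGTGGT on either strand, the RUNX core.
Irf8: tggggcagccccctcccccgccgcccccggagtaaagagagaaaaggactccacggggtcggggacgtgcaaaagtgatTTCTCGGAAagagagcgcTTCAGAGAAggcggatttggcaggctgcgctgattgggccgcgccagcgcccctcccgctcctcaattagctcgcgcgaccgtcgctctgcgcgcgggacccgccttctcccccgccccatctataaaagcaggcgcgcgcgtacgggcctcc
Bcl6 outer: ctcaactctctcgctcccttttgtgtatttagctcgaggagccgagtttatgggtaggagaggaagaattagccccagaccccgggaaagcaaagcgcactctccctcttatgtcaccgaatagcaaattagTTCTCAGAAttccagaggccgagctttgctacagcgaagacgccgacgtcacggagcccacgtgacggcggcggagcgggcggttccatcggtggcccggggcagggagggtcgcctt
Bcl6 inner: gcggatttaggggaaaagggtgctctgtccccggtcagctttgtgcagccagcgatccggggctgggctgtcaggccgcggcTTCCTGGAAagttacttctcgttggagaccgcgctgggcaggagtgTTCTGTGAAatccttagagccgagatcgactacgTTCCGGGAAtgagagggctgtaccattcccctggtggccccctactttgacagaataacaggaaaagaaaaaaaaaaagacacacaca
Runx3: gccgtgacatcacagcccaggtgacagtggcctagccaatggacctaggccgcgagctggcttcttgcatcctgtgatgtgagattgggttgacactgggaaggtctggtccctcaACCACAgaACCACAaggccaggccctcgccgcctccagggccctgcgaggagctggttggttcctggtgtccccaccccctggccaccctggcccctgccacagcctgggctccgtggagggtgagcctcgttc

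TTCNNNGAA, which reads the same on both strands, was found in 4 of the 11 windows, against 7.02% of all 32851 promoter windows of the same length. It occurred 7 times, 3 of them in the inner Bcl6 window, 1 in the outer Bcl6 window, 2 in the Irf8 window and 1 in the Batf3 window. Of these 7 matches, 4 also hold GGAA, the ETS core, on at least 1 strand. TGTGGT was found in 1 of the 11 windows, where it occurred at 134 and 126 bases before the Runx3 start on the minus strand, and in 14.1% of all windows. The other letters searched, on both strands, were GGAA (9 of 11 windows, 93.5% of all), CANNTG, the E box (7 of 11, 66.2% of all), AANNGAAA, the IRF core (1 of 11, 21.3% of all), TGANTCA, the AP-1 site (1 of 11, 6.75% of all), and TTANGTAA, the D box of NFIL3 and the PAR factors (0 of 11, 2.06% of all). A match describes letters in these windows and no binding was measured.

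Expression is given as the authors' normalized read count, which is scaled for depth but not for gene length. Named genes held 14.7 to 35.3 M reads per sample, and the 2 groups' depths overlapped (14.7 to 28.8 M before and 26.0 to 35.3 M after culture). The thinnest of the 10 genes, Batf3, rested on 291 to 941 reads per sample, and Irf8 on 9123 to 21737, so the spread between samples and not read counting sets the precision. Log2 fold changes are after minus before culture on the scale of log2(normalized count + 1), and "rose" and "fell" stand for a limma adjusted p under 0.05 over all 18202 genes tested; a plain fold is the ratio of the mean normalized counts.

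All 10 genes changed in level: 7 fell (Irf8, Irf4, Spi1, Nfil3, Bcl6, Tcf4 and Runx3) and 3 rose (Batf3, Id2 and Zbtb46). Among all genes tested 68.8% were called, 34.6% lower and 34.2% higher, so a change as such sets these genes little apart from the rest. The groups did not overlap for 8 of the 10, the exceptions being Spi1 and Zbtb46, and for 57.3% of all genes tested. The median log2 fold change of the 10 was −0.91, beside 0.0065 over all genes, and their median absolute change was 0.91 beside 0.64. Changes ran from −1.80 for Runx3 to 0.77 for Id2. In rank, 85.3% of all genes changed less than Runx3 in absolute terms, 70.9% less than Irf8 and 23.3% less than Zbtb46.

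**Figure D1:**
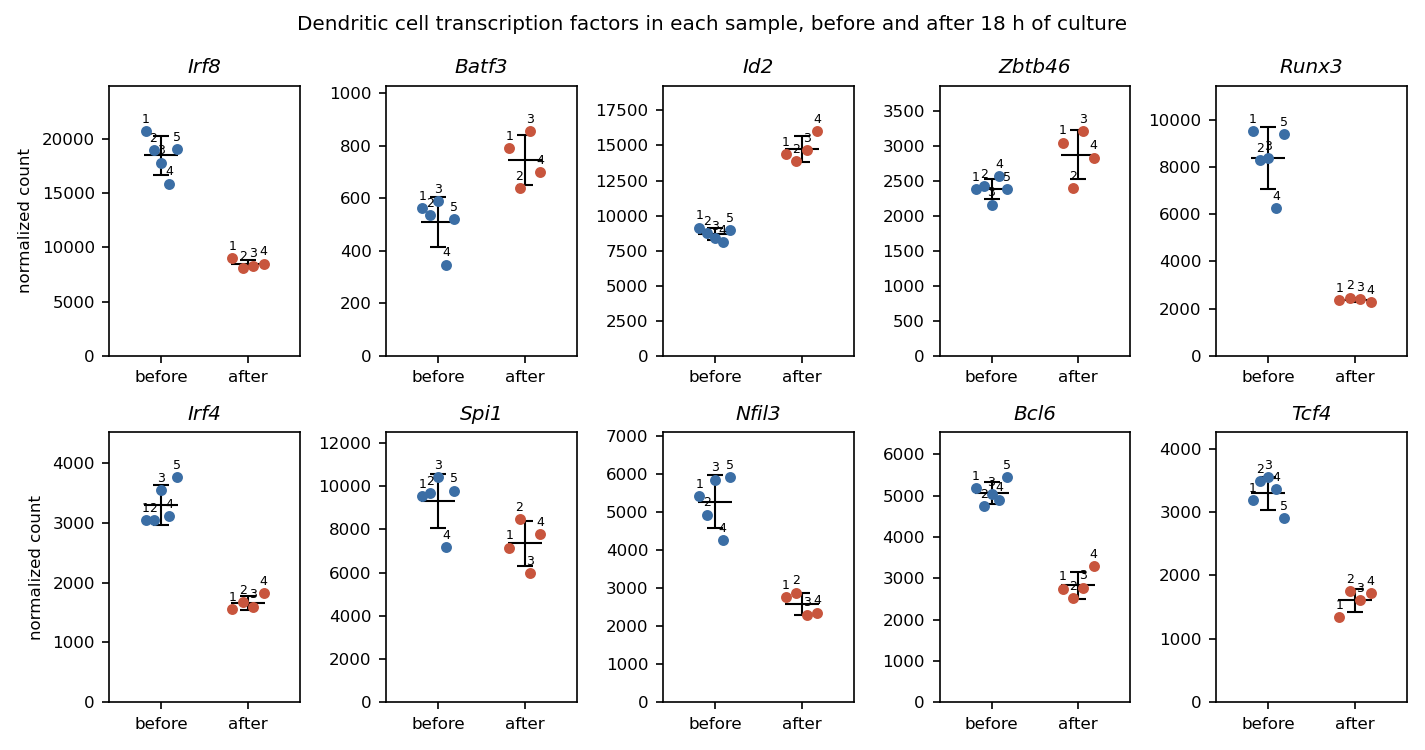
Normalized read counts (vertical axes, each from 0) of the 10 transcription factors in the 5 samples before (blue) and 4 samples after culture (red). Small digits are replicate numbers, and black bars give the mean and SD; Runx3 and Irf8 drop with a wide gap between groups, Id2 rises with a gap, and the groups meet for Spi1 and Zbtb46.

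Irf8 (chr8:120736358-120756694, plus strand) encodes the factor that cDC1 cannot form or persist without. Its normalized counts were 20697, 18915, 17786, 15864 and 19022 in replicates 1 to 5 before culture, and 9016, 8067, 8301 and 8475 in replicates 1 to 4 after culture. Every cultured sample lay below every uncultured one, and the cultured samples were the tighter group (CV 4.77% against 9.66%). Irf8 fell 2.18-fold (18457 ± 1783 before, n = 5, and 8465 ± 404 after, n = 4, SD), a log2 change of −1.12 (SE 0.084, 95% interval −1.30 to −0.94, limma adjusted p = 6.12e-08).

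Batf3 (chr1:191097847-191108945, plus strand), the AP-1 family partner of IRF8, moved the other way. Its counts were 563, 535, 590.1, 347 and 521 before and 789.7, 638, 856 and 700.2 after culture. All cultured samples were above all uncultured ones, but replicate 4 before culture stood well below the other 4. Batf3 rose 1.46-fold (511 ± 95.4 against 746 ± 96.4, SD), a log2 change of 0.56 (SE 0.146, 95% interval 0.24 to 0.87, limma adjusted p = 0.00387). The log2 fold change was 0.43 without that sample and 0.36 without it and replicate 3 after culture (limma adjusted p = 0.00411), and 1.18 after correction for GC content and length. The GC content of its longest transcript, 60.7%, was the highest of the 10 genes.

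Within each sample, the ratio of Batf3 to Irf8 per base of exon was 0.0967 to 0.147 before and 0.349 to 0.456 after culture. The groups did not overlap, and the mean log2 ratio shifted by 1.68, or 3.21-fold toward Batf3. Per base, Irf8 nevertheless stayed the more abundant of the 2 transcripts in all 9 samples.

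Id2 (chr12:25093799-25097140, minus strand) encodes the inhibitor of E proteins that conventional dendritic cells need. Its counts were 9148, 8740.2, 8371, 8102 and 8968 before and 14392, 13894, 14655 and 16033 after culture. This was the largest rise of the 10 genes without correction for GC content and length. With it, the log2 fold change was 0.57 for Id2 and 1.18 for Batf3. The groups were far apart: the lowest cultured sample was above the highest uncultured one by more than either group's SD. Id2 rose 1.70-fold (8666 ± 429 against 14743 ± 916, SD), a log2 change of 0.77 (SE 0.072, 95% interval 0.61 to 0.92, limma adjusted p = 5.79e-07).

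Nfil3 (chr13:52967209-52981073, minus strand) encodes a basic leucine zipper repressor that acts upstream in cDC1 development and is also a part of the circadian clock's output. Its counts were 5423, 4935, 5861, 4266 and 5916 before and 2772, 2884, 2309 and 2358 after culture, with no overlap. Nfil3 fell 2.05-fold (5280.1 ± 691 against 2581 ± 289.6, SD), a log2 change of −1.03 (SE 0.106, limma adjusted p = 1.44e-06). After correction for GC content and length the log2 fold change was −0.65.

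Bcl6 (chr16:23965052-23988852, minus strand) encodes a BTB zinc finger repressor known from germinal centre B cells and required by cDC1. It was measured at 5175, 4741, 5039.6, 4896 and 5436 before and 2746, 2522, 2771 and 3298 after culture, again with no overlap. The fall was 1.78-fold (5058 ± 266 against 2834 ± 329, SD), with a log2 change of −0.84 (SE 0.082, limma adjusted p = 8.54e-07). Prdm1, which encodes BLIMP-1 and represses Bcl6 in B cells, rose from 1027 ± 43.3 to 1410.1 ± 158 (log2 fold change 0.45, limma adjusted p = 3.17e-04). Within a sample the ratio of Bcl6 to Prdm1 per base was 3.73 to 4.53 before and 1.32 to 2.27 after culture, without overlap.

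Zbtb46 (chr2:181387762-181459426, minus strand) encodes the zinc finger factor whose expression separates conventional dendritic cells from monocytes and macrophages. Its counts were 2378, 2424, 2159.7, 2559.5 and 2377 before and 3042, 2396, 3208 and 2827 after culture. Replicate 2 after culture lay inside the range of the uncultured samples, and the other 3 were above it. Zbtb46 rose 1.21-fold (2379.8 ± 144 against 2868 ± 352, SD), the smallest change of the 10, with a log2 change of 0.26 (SE 0.088, 95% interval 0.072 to 0.45, limma adjusted p = 0.0173). This call was lost when replicate 1 (adjusted p = 0.0575) or replicate 3 (0.0533) of the cultured group was left out, and the log2 fold change was 0.50 after correction for GC content and length. With that correction, and with upper quartile scaling, the change of Spi1 was smaller (0.26 and −0.23).

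Spi1 (chr2:91082390-91115756, plus strand) encodes PU.1, the ETS family factor shared by dendritic cells, macrophages and neutrophils. It was measured at 9547, 9658, 10397, 7179.7 and 9781 before and 7149, 8476, 5986 and 7782 after culture. The groups met, because replicate 4 before culture was lower than 2 of the 4 cultured samples. Spi1 fell 1.27-fold (9313 ± 1237 against 7348 ± 1058, SD), a log2 change of −0.34 (SE 0.119, 95% interval −0.60 to −0.085, limma adjusted p = 0.0206). Its direction depended on the processing: after correction for GC content and length the log2 fold change was 0.26 (limma adjusted p = 0.0288), that is, higher after culture. That correction moved the median of all genes from 0.0065 to 0.13. With upper quartile scaling Spi1 stayed lower (−0.23) without passing the threshold (adjusted p = 0.0726), and leaving out replicate 3 of the uncultured group (adjusted p = 0.0516) or replicate 3 of the cultured group (0.0655) also lost the call. The summed level of 8 macrophage and monocyte genes overlapped between groups (18107 to 34907 before and 18755 to 39097 after culture), whereas that of 6 neutrophil genes was 12713 to 21974 before and 813 to 1687 after. Neither sum held a defining gene at 0 in all samples, and the part of either cell type in the Spi1 value was not tested.

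Irf4 (chr13:30749226-30766976, plus strand) encodes the relative of IRF8 that acts in cDC2 and in B and T cells. Its counts were 3040.2, 3040.5, 3539.6, 3106 and 3752 before and 1556, 1674, 1595 and 1821 after culture. The gap between the highest cultured and the lowest uncultured sample was wider than the range of either group. Irf4 fell 1.98-fold (3296 ± 329 against 1662 ± 117, SD), a log2 change of −0.98 (SE 0.084, 95% interval −1.17 to −0.80, limma adjusted p = 2.23e-07). Since Irf8 fell to a like extent, the ratio of Irf4 to Irf8 per base within a sample overlapped between groups (0.211 to 0.286 before and 0.248 to 0.309 after culture). Its log2 mean was −1.96 ± 0.20 before and −1.83 ± 0.14 after culture (SD).

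Runx3 (chr4:135120652-135177990, plus strand) showed the largest change of the 10 without correction for GC content and length. With it, the log2 fold change was −1.25 for Runx3 and −1.27 for Tcf4. RUNX3 binds DNA as a pair with CBFB, and in T cells it drives expression of CD103. Its counts were 9523, 8289.8, 8372, 6257 and 9388.5 before and 2359, 2465, 2400.3 and 2286 after culture. Even the lowest uncultured sample, replicate 4, was far above all cultured samples, which agreed within a CV of 3.15%. Runx3 fell 3.52-fold (8366 ± 1307 against 2378 ± 74.9, SD), a log2 change of −1.80 (SE 0.108, 95% interval −2.03 to −1.57, limma adjusted p = 6.42e-09). Runx3 is also expressed in NK cells and T cells. A sum of 6 NK cell genes was 1324 to 2753 before and 288 to 488 after culture, and one of 8 T cell genes overlapped between groups (6593 to 7722 and 5817 to 7527); their part in the Runx3 value was not tested.

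In bulk RNA of this kind, fewer cells of a type and less RNA per cell cannot be told apart. This bears above all on Tcf4 (chr18:69343356-69689079, plus strand), which endothelial cells and fibroblasts express as well as plasmacytoid dendritic cells. Tcf4 counts were 3188, 3481, 3544, 3364 and 2899.8 before and 1342, 1754, 1610.5 and 1719.7 after culture, with no overlap. Tcf4 fell 2.05-fold (3295 ± 259 against 1606 ± 187, SD), a log2 change of −1.04 (SE 0.091, limma adjusted p = 3.00e-07). The summed level of 6 endothelial genes was 21920.2 to 31725 before and 3189 to 4150.1 after culture. That of 6 fibroblast genes was 15763 to 28712 before and 2279 to 4545 after. All 12 of these genes fell, but the fibroblast gene Pdgfra (log2 fold change −0.53) overlapped between groups. Pdgfra lost its call with upper quartile scaling, quantile normalization and the correction for GC content and length. Of 7 plasmacytoid dendritic cell genes, 6 were tested and 3 fell, with a sum of 1961 to 2411 before and 1141 to 1642 after culture. Siglech, a surface receptor of plasmacytoid cells, went from 389 ± 46.7 to 11.9 ± 8.67 (log2 fold change −5.31, limma adjusted p = 3.70e-07). Klk1, the gene not tested, was near the limit of detection in both groups (3.17 ± 2.58 before and 0.638 ± 0.431 after culture). It was at or below 3 reads in every cultured sample. The part of these cell types in the Tcf4 value was not tested.

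Id2 and Tcf4, the inhibitor and its target, moved in opposite directions. Per base of exon the ratio of Id2 to Tcf4 was 26.5 to 34.7 before and 89.0 to 120.5 after culture, a shift of 1.81 in the mean log2 ratio (3.50-fold). The Tcf4 gene model joins 62 transcripts into 27.4 kb of exons, so the size of the ratio depends on the length used, while the shift does not.

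**Figure D2:**
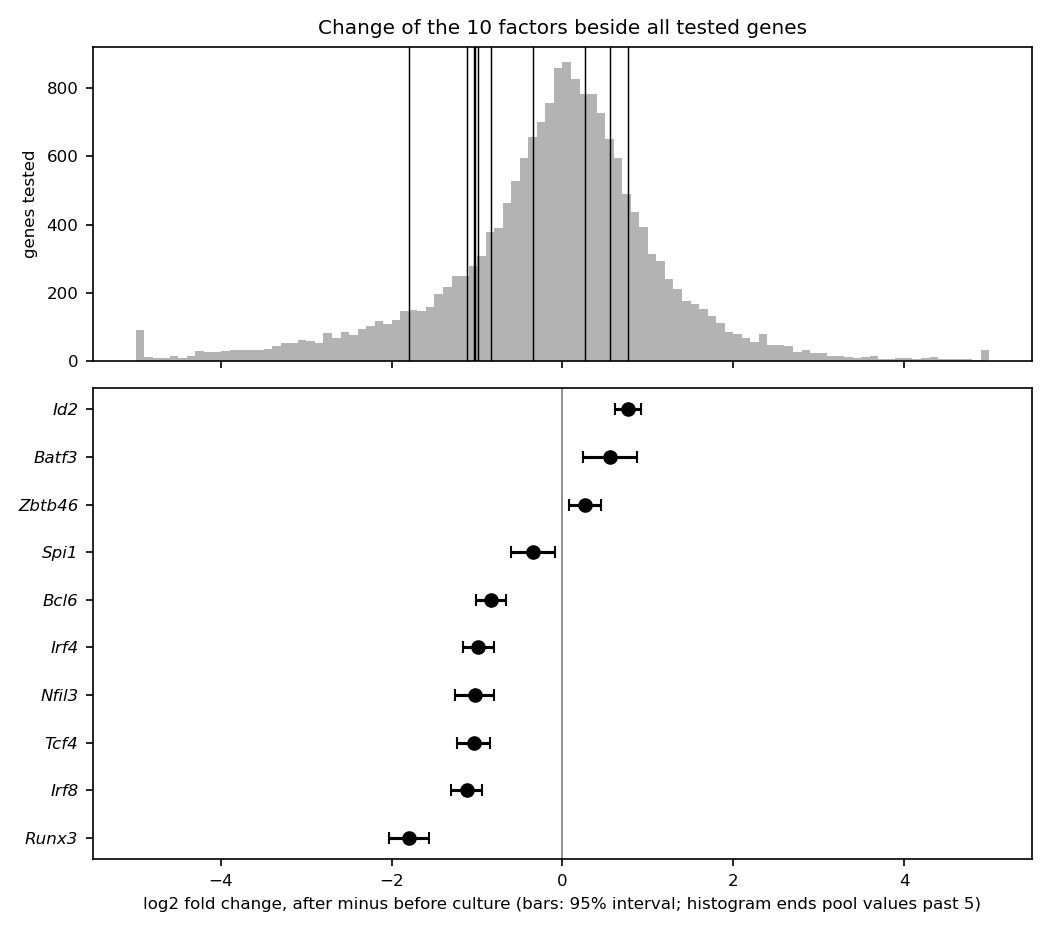
Top, number of tested genes (vertical axis) by log2 fold change after minus before culture, with the 10 factors as black lines; bottom, each factor's log2 fold change with its 95% interval. Runx3 lies farthest to the left at −1.80, a group of 5 genes lies between −0.84 and −1.12, and Zbtb46 and Spi1 lie closest to 0.

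Replicate 4 before culture was the lowest of its group for 6 of the 10 genes (Irf8, Batf3, Id2, Spi1, Nfil3 and Runx3), and highest for Zbtb46. It also had the lowest sum of macrophage and monocyte genes among the uncultured samples (18107, others 28425 to 34907) and the highest sums of NK cell genes (2753, others 1324 to 1622) and epithelial genes (30869, others 20374 to 22230). The part of these cells in the members' values was not tested. Without this sample all 10 genes kept their call and direction. The 2 groups were then further apart for Spi1 (log2 fold change −0.43) and Runx3 (−1.90), among others. They were closer for Batf3 (0.43), Id2 (0.74) and Tcf4 (−1.03).

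Compared per kilobase of all exons joined, in GENCODE M21 (GRCm38, the build named in the submitters' processing notes), the most abundant transcript before culture was Id2, at 3554 ± 176 normalized counts per kb (SD, n = 5). Spi1 followed at 3455 ± 459, and the ranges of these 2 genes overlapped. Next came Irf8 (2616 ± 253) and Nfil3 (2606 ± 341), which also overlapped, and then Runx3 (1672 ± 261). Bcl6 (755 ± 39.8) and Irf4 (672 ± 67.2) overlapped at a lower level, as did Batf3 (320.1 ± 59.7) and Zbtb46 (279.7 ± 16.9), and Tcf4 was lowest (120.3 ± 9.47).

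After culture Id2 led alone at 6047 ± 376 normalized counts per kb (SD, n = 4), and Spi1 was next at 2727 ± 392. Nfil3 (1274 ± 143) and Irf8 (1199.8 ± 57.2) still overlapped. Runx3 dropped into the range of Batf3 and Bcl6, at 475 ± 15.0 against 467 ± 60.4 and 423 ± 49.1. Irf4 (339 ± 23.8) and Zbtb46 (337 ± 41.3) overlapped, and Tcf4 was again lowest (58.7 ± 6.82). Divided by the longest transcript instead, Irf8 led before culture (5320.5 per kb) and Id2 after it (7488 per kb), and several of the overlaps ended. Irf8 was then above Nfil3 in both groups (4573 to 5966 against 2106 to 2920.0 per kb before and 2325 to 2599 against 1139.8 to 1424 after culture), and Bcl6 above Irf4 before culture (1205 to 1382 against 638 to 788). After culture Zbtb46 lay above Irf4 (451 to 604 against 327 to 382) and Runx3 just below Bcl6 (589 to 635 against 641 to 839). The overlaps of Id2 with Spi1 and of Batf3 with Zbtb46 before culture, and of Runx3 with Batf3 and Batf3 with Bcl6 after it, were seen with both lengths. The order of neighbouring genes thus depends on the length used, whereas each gene's change with culture does not.

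**Figure D3:**
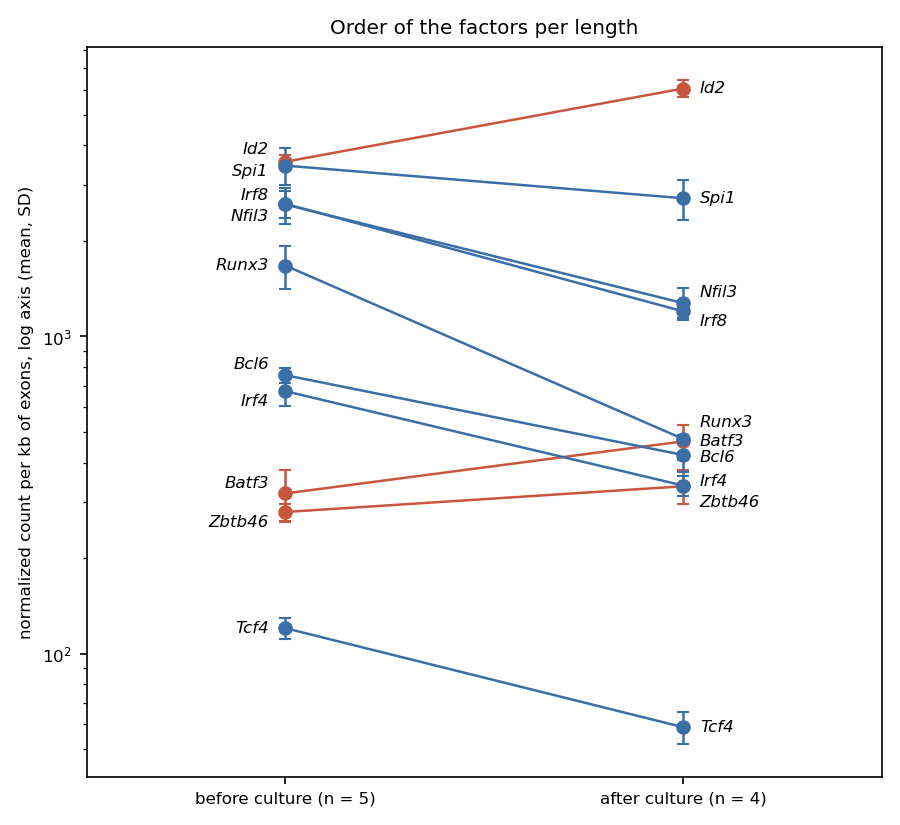
Mean normalized count per kb of exons (log axis, bars SD) of the 10 factors before (n = 5) and after culture (n = 4), with rising genes in red and falling genes in blue. Id2 moves away from Spi1 at the top, and Runx3 falls from 1672 into the range of Batf3 and Bcl6 with this length; with the longest transcript it lies just below Bcl6.

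The relatives and partners of the 10 factors were followed through 8 lists, 65 further genes in all, each of which was tested. Of these, 19 rose and 31 fell, with a median log2 fold change of −0.15 (0.0065 over all genes). With upper quartile scaling, which moved the median of all genes from 0.0065 to 0.11, the counts were 26 and 29, and after correction for GC content and length 29 and 25, so the balance of the 2 directions depends on the processing.

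Other interferon regulatory factors were measured beside Irf8 and Irf4. Irf2, a regulator of interferon genes, rose from 2204 ± 191 to 2843 ± 93.2 (log2 fold change 0.37, limma adjusted p = 6.85e-04). Irf5, which acts in Toll-like receptor signalling, fell from 13631 ± 939.8 to 11102 ± 650.2 (−0.30, limma adjusted p = 0.00383), and its sign turned after correction for GC content and length. Irf1 (log2 fold change 0.11), Irf3 (−0.14), Irf7 (−0.65, limma adjusted p = 0.0581) and Irf9 (0.12) did not pass. Irf1 and Irf9 passed with upper quartile scaling, Irf7 with quantile normalization, and Irf1, Irf3 and Irf9 after correction for GC content and length. The 95% interval of Irf7, −1.26 to −0.03, was wide and held the log2 fold changes of Irf8 (−1.12) and Irf4 (−0.98).

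The AP-1 proteins with which BATF3 and the IRF factors share DNA sites moved against Batf3. All 5 genes of this list fell (Batf, Batf2, Jun, Junb and Jund), with a median of −3.04. Jun, an immediate early gene, went from 17807 ± 2209.9 to 1638 ± 225 (log2 fold change −3.44, limma adjusted p = 2.08e-11), Junb from 54663 ± 6742 to 6615 ± 735 (−3.04) and Jund from 8601 ± 1786 to 796 ± 98.7 (−3.41). Batf, the closest relative of Batf3 in lymphocytes, fell from 505 ± 69.1 to 227 ± 37.3 (−1.15, limma adjusted p = 6.16e-06). Batf2 (−0.86) overlapped between groups and lost its call after correction for GC content and length.

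Of the other E proteins and ID inhibitors, 4 of 5 fell and 1 did not pass, with a median of −0.40. Id1 went from 757 ± 92.5 to 170.7 ± 27.6 (log2 fold change −2.15, limma adjusted p = 6.67e-09), opposite to Id2. Id4 was near the limit of detection (23.0 ± 7.25 against 6.43 ± 5.20, log2 fold change −1.93). Tcf3, the E protein E2A, fell by 0.25 on the log2 scale with overlapping groups (limma adjusted p = 0.0155), and Id3 by 0.40. Both lost the call with upper quartile scaling, and Tcf3 turned its sign after correction for GC content and length.

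The ETS family held changes in both directions, 5 higher and 4 lower among 11 genes besides Spi1 (median 0.12). Spic, a relative of PU.1 known from red pulp macrophages, rose from 39.9 ± 8.33 to 448 ± 57.1 (log2 fold change 3.47, limma adjusted p = 1.13e-09). Ets2 fell from 8774 ± 1342 to 1267 ± 364 (−2.82, limma adjusted p = 5.64e-09) and Erg, an endothelial factor, from 332 ± 69.1 to 49.3 ± 20.4 (−2.78). Of the RUNX genes, Runx1 fell from 10182 ± 1153 to 6553 ± 532 (−0.63, limma adjusted p = 4.85e-05) and the shared partner Cbfb from 3348 ± 80.0 to 2697 ± 309 (−0.32), while Runx2 rose from 1943 ± 143 to 2583 ± 170.0 (0.41, limma adjusted p = 3.01e-04).

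Among BTB zinc finger repressors and the corepressors of BCL6, 4 of 8 fell and the other 4 did not pass (median −0.31). Bcl6b went from 677 ± 103 to 83.7 ± 23.9 (log2 fold change −3.03, limma adjusted p = 3.02e-09) and Zbtb16 from 693 ± 78.4 to 333 ± 45.3 (−1.06). In the family of Nfil3, 3 of 7 PAR and C/EBP genes rose and 3 fell (median −0.012). Cebpb went from 11333 ± 3720 to 2021 ± 892 (−2.53, limma adjusted p = 8.77e-06) and Cebpd from 1631 ± 236 to 378 ± 93.1 (−2.12). Cebpg rose from 1061 ± 114 to 2084 ± 149.6 (0.98, limma adjusted p = 4.62e-07).

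Other regulators of dendritic cell development also divided, 8 higher and 8 lower among 19 (median 0.017). Klf4, which cDC2 subsets need, fell from 16113 ± 3741 to 822 ± 78.9 (log2 fold change −4.26, limma adjusted p = 3.12e-11), and Mycl, a Myc relative under IRF8 in cDC1, from 1892 ± 202 to 520.8 ± 70.0 (−1.86, limma adjusted p = 3.90e-09). Relb, an NF-kB subunit of mature dendritic cells, rose from 3025 ± 221 to 10029 ± 739 (1.73, limma adjusted p = 4.53e-10). Zeb2, named here after its values were seen because NFIL3 and ID2 are set against it in cDC1 development, rose from 7194 ± 1238 to 12993 ± 2634 (0.85, limma adjusted p = 1.69e-04).

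Genes of dendritic cell subsets and maturation were followed as 3 further lists. Of 12 cDC1 genes 11 fell and 1 rose, with a median log2 fold change of −3.23 and no overlap between groups for any of the 12. Xcr1, a chemokine receptor of cDC1, went from 5836 ± 781 to 114 ± 32.5 (−5.70, limma adjusted p = 8.53e-12), Wdfy4, needed for cross-presentation, from 75717 ± 6275 to 4761 ± 811 (−4.00) and Clec9a, a receptor for dead cells, from 2756 ± 286 to 315.1 ± 27.8 (−3.12). Itgae, the selection marker itself, fell by 3.41 on the log2 scale. Every one of these genes was above 3 reads in at least 1 sample of both groups, so the markers of the labelled cell type were detected in both. Each of these 4 changes was larger than that of Irf8 (−1.12), and Batf3 moved in the opposite direction. The 1 cDC1 gene that rose was Ly75 (4440 ± 704 against 24100 ± 2717, log2 fold change 2.45). The summed level of the 12 cDC1 genes was 3.74-fold lower after culture (136856 to 161732 against 38456 to 42179), and Ly75 held a large part of the cultured sum. Some sums of other cells' markers were lower too: 13.5-fold for neutrophil, 7.30-fold for endothelial, 6.59-fold for fibroblast and 4.71-fold for NK cell genes. The epithelial sum was 3.78-fold lower (20374 to 30869 before and 5356 to 8017 after culture), although Foxj1 rose (2.93) and Krt8 did not pass. Sums of T cell, B cell, and macrophage and monocyte genes overlapped between groups. The part of these cells in the cDC1 values was not tested.

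Of 12 mature dendritic cell genes 10 rose and 2 fell (median 1.90). The 3 with the smallest adjusted p were the lymph node homing receptor Ccr7 (7918 ± 372 against 53005 ± 2238, log2 fold change 2.74, limma adjusted p = 4.56e-12), Socs2 (2.53) and Cd274, which encodes PD-L1 (2.07). The 2 that fell were Cd83 (14236.5 ± 731 against 9537 ± 875, −0.58) and Cd86 (5620 ± 903 against 4083 ± 567, −0.46). Neither overlapped between groups. Among 8 cDC2 genes 5 fell and 2 rose (median −1.42). Mgl2 went from 3857 ± 500.1 to 52.1 ± 25.9 (−6.31, limma adjusted p = 1.70e-10) and Cd209a from 754.5 ± 141 to 10.1 ± 4.42 (−6.18), while Itgam and Clec4a4 rose. Sirpa (0.34) did not pass, but it did with upper quartile, TMM and quantile scaling and after correction for GC content and length. The summed level of the 8 cDC2 genes overlapped between groups (17015 to 24242 before and 15360.5 to 28362.5 after culture), whereas that of the cDC1 genes did not. The factor of cDC2, Irf4, fell alongside 5 of 8 cDC2 genes, and Irf8 fell alongside 11 of 12 cDC1 genes. These comparisons share the same 9 samples.

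**Figure D4:**
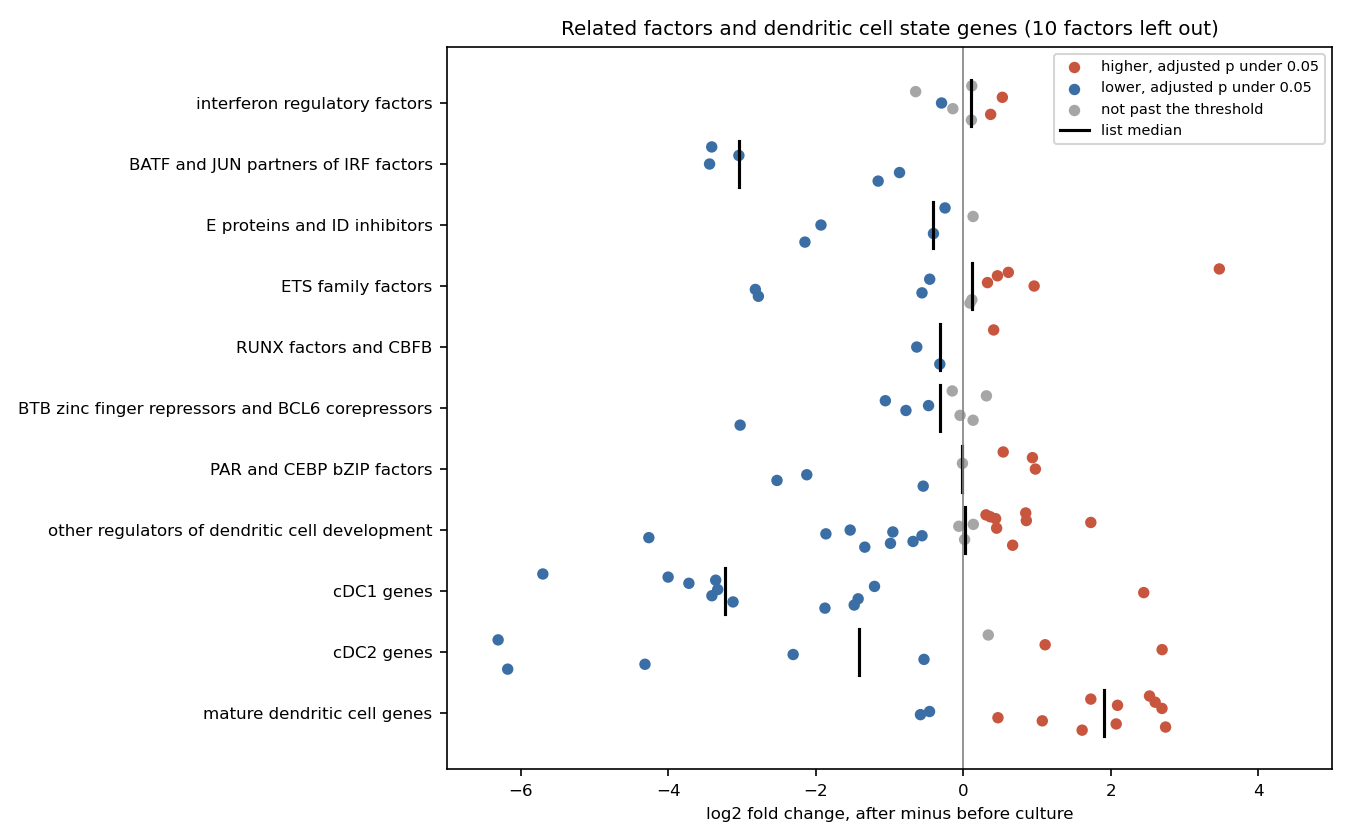
Log2 fold change after minus before culture (horizontal axis) of single genes in 8 lists of related factors and 3 lists of dendritic cell genes, without the 10 factors; red and blue points passed the threshold, grey did not, and black bars are list medians. The 5 AP-1 partners and 11 of 12 cDC1 genes lie to the left of 0, and 10 of 12 mature dendritic cell genes to the right.

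The genes most like each factor over the 9 samples were found by Pearson correlation of log2 values among 11776 genes with a mean of at least 100, and since all points share the split into 2 groups, r is mostly a measure of that split. Irf8 was most like Entpd6 and Ubald1 (r = 0.997 and 0.996), Irf4 like the clock gene Per2 (0.997) and the chaperone gene Dnaja1 (0.993), and Runx3 like the splicing factor gene Sf1 (0.999) and Slc16a13 (0.998). Nfil3 was most like Gpr35 (0.996) and Pgs1 (0.996), Spi1 like Ccdc124 (0.994) and Rab1b (0.991), and Tcf4 like Kalrn (0.996) and the histone deacetylase gene Hdac9 (0.995). Bcl6 was most like Bcl11a (0.994), another zinc finger factor of lymphoid and dendritic cells, and Tsc22d2 (0.992). The rising genes had Tm4sf5 and Dnah2 (Id2, 0.995 and 0.995), Gemin7 and Alkbh6 (Batf3, 0.983 and 0.979) and Nsun4 and Hmgb1-ps8 (Zbtb46, 0.979 and 0.976) beside them.

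Shared sequence touches the members little, and the overlapping genes that were measured were low beside them. At most 1.43% of the 50-base windows of a member's longest transcript (Runx3) also occur in transcripts of other genes. Gm16224, which lies within Runx3 on the other strand without shared exon bases, had a mean of 52.7 before and 34.7 after culture, or 0.630% and 1.46% of the Runx3 level. Gm22708, a small nuclear RNA gene within Zbtb46, was at 3.83 before and 3.65 after culture. Gm37419 shares 21 exon bases with Bcl6 on the other strand. Gm20388 at Irf8 and Gm24845 at Tcf4 lie on the same strand without shared exon bases. None of these was among the named genes measured, so their levels are not known. Strandedness of the libraries is not given in the sources used here.

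**Figure D5:**
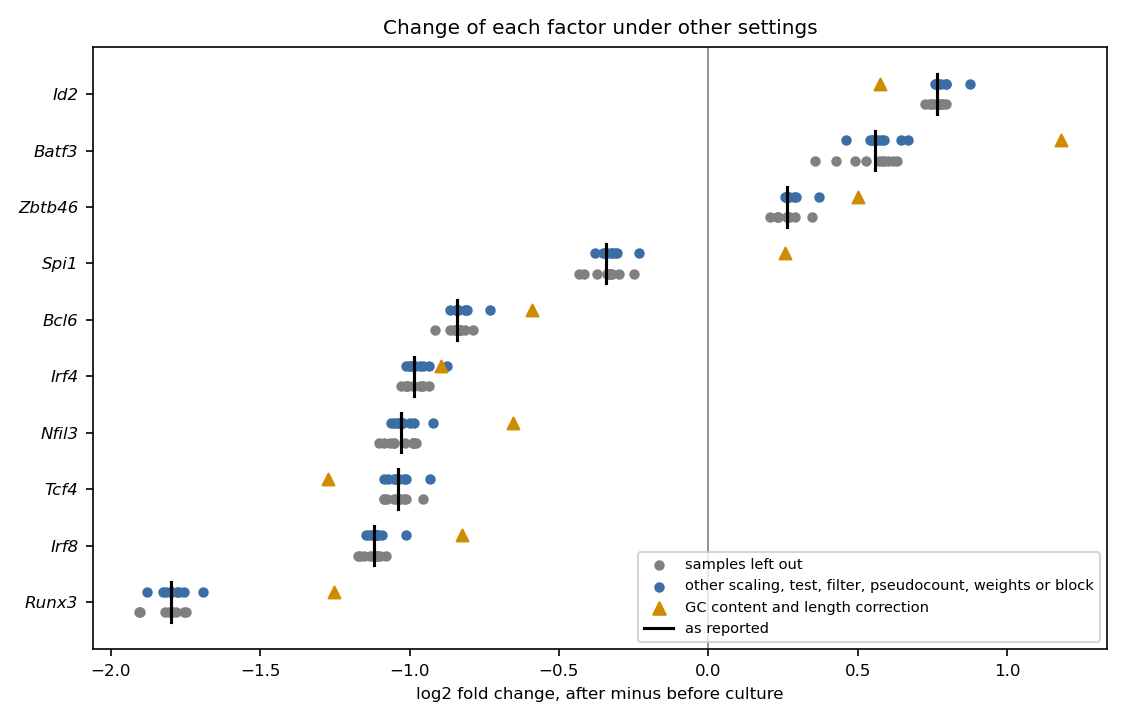
Log2 fold change after minus before culture (horizontal axis) of each factor as reported (black bar), with samples left out (grey), under other scalings, tests, filters, pseudocounts, weights or blocks (blue) and after correction for GC content and length (orange triangles). Spi1 crosses 0 to 0.26 under that correction, and Batf3 moves from 0.56 to 1.18.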

How the data were processed

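RNA of CD103-positive lung dendritic cells was sequenced in 5 samples before and 4 after culture. The authors deposited 1 table of gene counts per sample divided by 1 scaling factor each, a signal that is never negative; DESeq2 and GRCm38 are named per the submitters' processing notes, and aligner, counter and annotation are not given in the sources used here. All values (100%) were whole multiples of 1 step per column (tolerance 1e-06), so whole reads were recovered by division. The 3782 rows without a symbol, with 3.87 to 10.9% of reads, were left out. Genes with a mean of at least 10 (18202) entered a linear model of log2(value + 1) on group alone, two-sided with a mean-variance trend (limma 3.58.1, R 4.3.3), with Benjamini-Hochberg adjustment over all of them and a threshold of 0.05. Lists were described by counts and medians only.

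Gene models, GC content and shared windows came from GENCODE M21, which may not be the authors' annotation. The 10 genes and all lists were chosen with earlier results of these data known. Genes named are the 10 members, of each list of related or state genes up to 3 with the smallest adjusted p, interferon regulatory factors, genes overlapping a member, the 2 most correlated genes per member, and at most 2 per marker list; some are not reported here. Alternatives were pseudocounts of 0.5 and 8, no filter or a minimum mean of 50, upper quartile, TMM and quantile scaling, sample weights, edgeR 4.0.16 and DESeq2 1.42.0 on recovered reads, a replicate block, leaving out each sample, and removal, sample by sample, of a smooth dependence on GC content and length (96.5% of tested genes had values). The scripts were tested on simulated data. Python 3.11.15, NumPy 2.4.6, pandas 2.3.3 and matplotlib 3.10.9 were used.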

Additional observations from a re-analysis of the deposited data

Results flagged for a closer look

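In 2 of 20 groups of values (10 genes in 2 groups of samples) 1 sample lay far from the others by Dixon's criterion, which chance alone meets in about 1 of 20 groups. Both were replicate 4 before culture, in which Batf3 was at 347 where the other 4 samples lay between 521 and 590.1, and Spi1 was at 7179.7 where the others lay between 9547 and 10397. The same sample had the lowest macrophage and monocyte sum of its group (18107).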

How the results depend on the processing

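Over 23 alternatives, 9 of the 10 genes kept their direction in all and 8 kept their side of the threshold in all, Spi1 and Zbtb46 being the exceptions. Spi1 turned to 0.26 after correction for GC content and length (60.7% GC in Batf3 and 58.9% in Spi1, the highest 2 of the 10), for which 4 members were higher and 6 lower; the cause was not tested. Spi1 no longer passed with upper quartile scaling (−0.23) and ran from −0.43 to −0.25 when 1 sample was left out; Zbtb46 ran from 0.21 to 0.35. With a replicate block by the number in the titles neither passed (Spi1 −0.32, limma adjusted p = 0.0705, and Zbtb46 0.26, 0.0549). By the number in the library names both did (Spi1 −0.33, limma adjusted p = 5.34e-04, and Zbtb46 0.27, 0.00301). Same-numbered samples deviated together with r from −0.21 to 0.081 by title and from 0.045 to 0.35 by library name. By library name all 4 cultured samples correlated best with their own number, and by title 1 did. Whether the numbers mark shared mice is not given in the sources used here, so the main fit did not pair samples. The count of related genes that rose was 29, not 19, after the GC and length correction, which for these lists was added after seeing the data, as was leaving out 2 samples together. Count models called all 10 genes. Levels per kb moved by more than 1 SD with the longest transcript as length for 8 of the 10 genes. Reads carry no molecular identifiers, so read counts understate error.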
